A study of Mus musculus with 10 samples.

Results

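The nuclear genes for subunits of respiratory complexes II to V were read in RNA of mouse primary hippocampal neurons in which a microRNA had been inhibited. Members were all protein-coding genes with the symbols Sdha, Sdhb, Sdhc or Sdhd, symbols starting with Uqcr or Atp5, symbols of Cox followed by a number from 4 to 8, and Cyc1. The rule found 48 genes among the 48709 genes counted, with 4 in complex II, 9 in complex III, 18 in complex IV and 17 in complex V. Of these, 45 passed the filter on low counts, and the isoform genes Cox4i2, Cox7b2 and Cox8c did not. The study's cultures received lipid nanoparticles for 48 h between days 10 and 12 in vitro. The particles held scramble RNA in the control group (2 libraries) and antisense RNA against a single microRNA in the others, either anti-miR-409-5p (4 libraries) or anti-miR-501-3p (4 libraries). All groups therefore shared the kind of particle, the kind of culture and the days of treatment in vitro. The labels used here give no strain, sex or age of the mice and do not say whether replicates are separate cultures, so a p-value reflects only the variation among the libraries, which may be technical.

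The respiratory chain passes electrons from NADH and succinate to oxygen and pumps protons out of the mitochondrial matrix, and ATP synthase lets them back in to make ATP. Complex II (succinate dehydrogenase) also works in the citric acid cycle and is encoded wholly in the nucleus. Complex III (cytochrome bc1), complex IV (cytochrome c oxidase) and complex V (ATP synthase) join nuclear subunits to a few encoded by mitochondrial DNA. Neurons draw most of their ATP from this pathway, for ion pumping and synaptic transmission above all.

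A microRNA pairs through its seed, bases 2 to 8, with sites in 3′ UTRs, and inhibiting it can raise such targets. The inhibited microRNAs are shown first because their seeds define the sites, with the seed in capitals (RefSeq, GRCm38.p6). MiR-409-5p lies on the plus strand of chr12:109743172-109743194 and miR-501-3p on the minus strand of chrX:7241270-7241291.
miR-409-5p: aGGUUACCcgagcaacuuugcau
miR-501-3p: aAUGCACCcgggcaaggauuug
A site was counted where 7 bases paired with bases 2 to 8, or where bases 2 to 7 paired and an A followed. Among the 45 tested members, 1 had such a site for miR-409-5p in its longest annotated 3′ UTR, against 9.85% of 14207 tested genes with a 3′ UTR, and 2 had one for miR-501-3p, against 13.0%. The members' 3′ UTRs were short, with a median of 203 bases against 1219 over those genes. Sdhc, a membrane anchor of complex II, was the single member with a site for both, and Atp5g1, a gene for the c subunit of ATP synthase, held the other site for miR-501-3p. The site of Sdhc for miR-409-5p is of the second kind, with bases 2 to 7 and an A, and the others are of the first. These 3 windows, with the site in capitals, are on the minus strands of chr1:171127361-171127388, chr1:171128230-171128257 and chr11:96070209-96070236 (mm10, GENCODE M21).
Sdhc, miR-409-5p site: aggaaaggttaGTAACCAgacattttta
Sdhc, miR-501-3p site: ctgcctcccgGGTGCATgttaccaccac
Atp5g1, miR-501-3p site: tattagctctGGTGCATggatgaggcca
Neither gene rose: Sdhc fell past the threshold in both comparisons and Atp5g1 passed it in neither, with values given under their complexes.

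Between 22254788 and 32096808 reads per library were counted to genes, and the members took 0.718% and 0.742% of them in control against 0.599% to 0.667% in the anti-miR libraries. Markers of neurons summed to 6096 to 6143 normalised counts (CPM) per library in control. They summed to 6284 to 6517 CPM with anti-miR-409-5p and 6161 to 6472 CPM with anti-miR-501-3p. All 10 neuron markers were detected, and in each comparison with control 5 passed the threshold given below as higher and 4 as lower. Astrocyte markers summed to 1783 to 1803 CPM in control, 1842 to 1882 with anti-miR-409-5p and 1792 to 1835 with anti-miR-501-3p. Microglia markers summed to 13.6 to 18.1 CPM per library. Vascular and fibroblast markers summed to 199 to 316 CPM and markers of dividing cells to 59.7 to 114 CPM. Markers of oligodendrocyte lineage cells summed to 439 to 594 CPM in control, 399.7 to 494 with anti-miR-409-5p and 343 to 473 with anti-miR-501-3p. The part of neurons, astrocytes or oligodendrocyte lineage cells in the results was not tested. In both comparisons with control, log2 fold changes fell with the GC content of the transcript over all tested genes (Spearman rho across 16839 genes -0.71 for each anti-miR). In bulk RNA, fewer cells of a type and less RNA per cell cannot be told apart. Polyadenylated RNA holds no mature microRNA, so the inhibition itself could not be checked.

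Nuclear subunit genes were mostly lower in both anti-miR groups, by small amounts. Of 45 tested members, 24 fell and 1 rose with anti-miR-409-5p, against 12.2% of all tested genes lower and 15.6% higher at the same threshold (edgeR, adjusted p of 0.05 over 16884 genes). With anti-miR-501-3p, 22 fell and 1 rose, against 15.4% lower and 17.6% higher. The median log2 fold change of the members was -0.17 with anti-miR-409-5p and -0.15 with anti-miR-501-3p, where that of all tested genes was -0.01 in both. This corresponds to medians of -11.1% and -9.81%. Both comparisons use the same 2 control libraries, so their values stand side by side and the second does not repeat the first. The plot of fold changes shows every tested member.

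**Figure D1:**
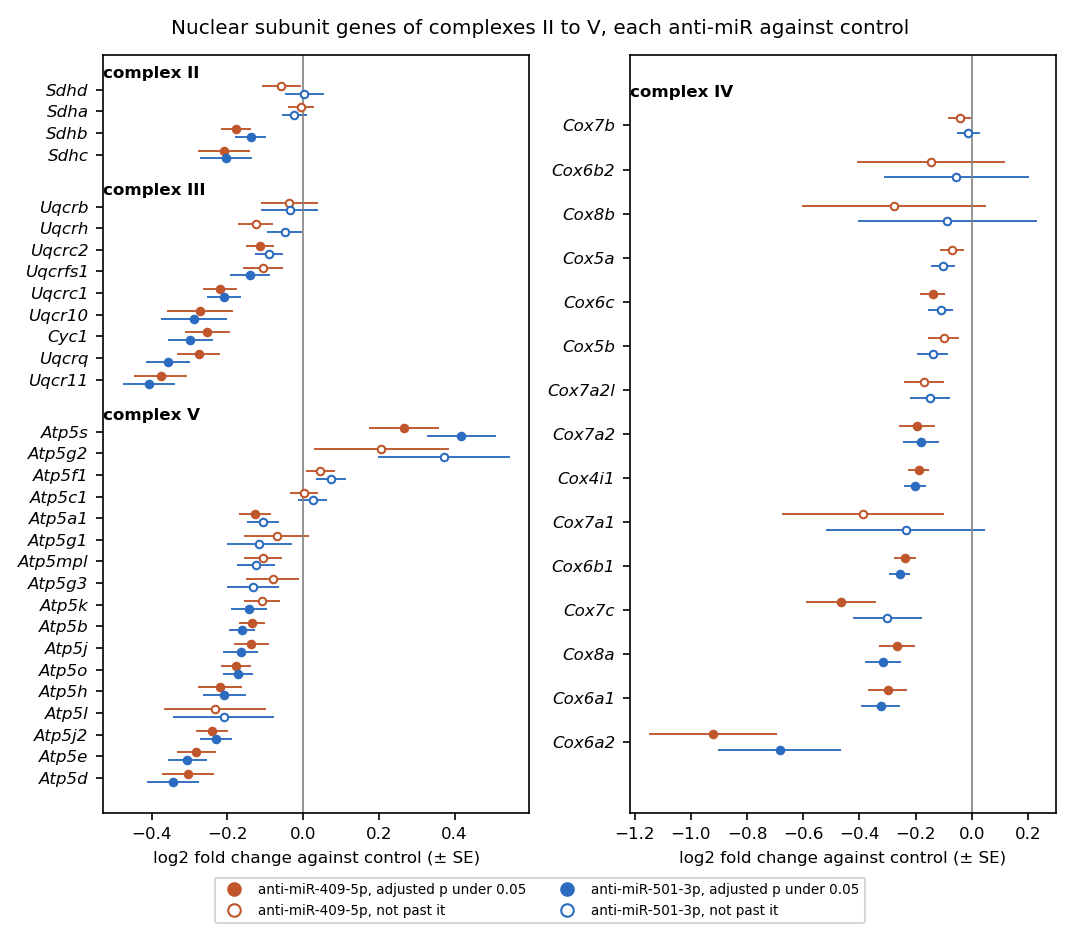
Log2 fold change against control (x axis, ± SE) of the 45 tested members of complexes II, III and V (left) and IV (right), for anti-miR-409-5p (orange) and anti-miR-501-3p (blue). Filled points passed an adjusted p of 0.05, and Atp5s is the only filled gene to the right of 0.

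Read library by library, all 4 anti-miR-409-5p libraries lay below both control libraries for 29 members and above both for 2, where 24% and 24.1% of all tested genes did so. For anti-miR-501-3p, 32 members lay below both controls and 3 above, against 25.6% and 24.3% of tested genes. These counts involve no test, but they use the same scaled values and the same 2 controls as the calls and are no separate check. The plot of libraries shows the 40 members with at least 2 CPM in control.

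**Figure D2:**
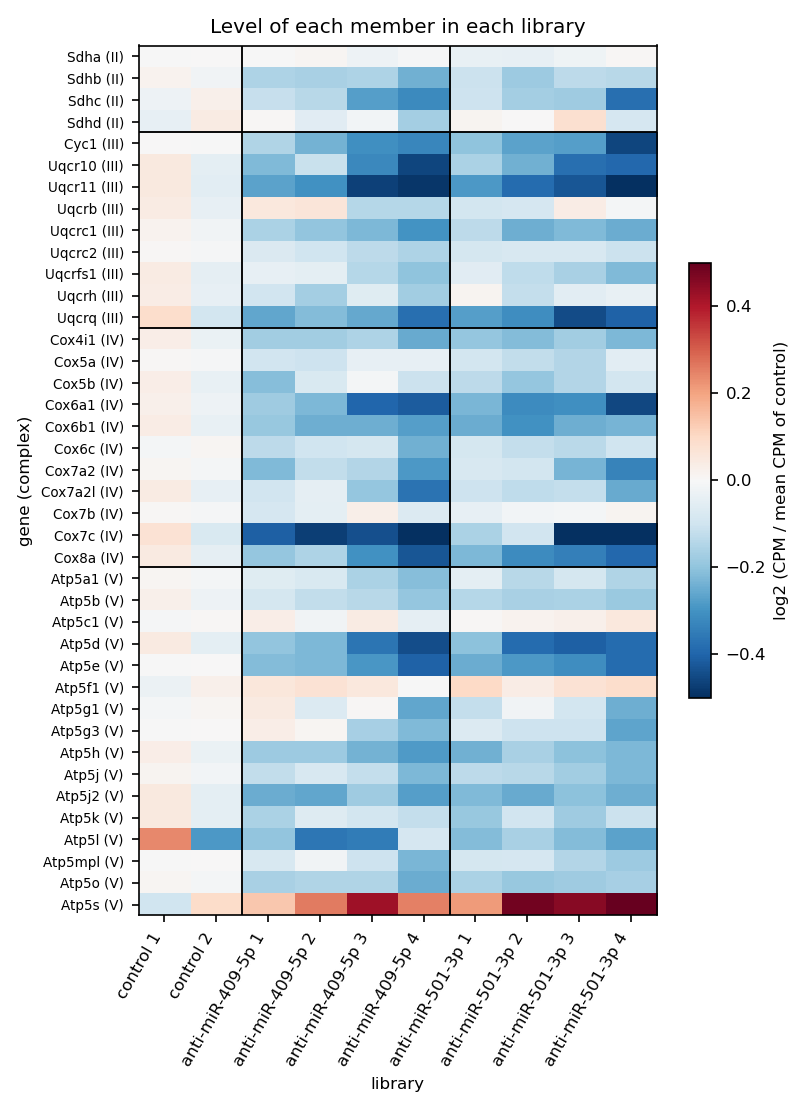
Level of 40 members (rows, complex in parentheses) in each of the 10 libraries (columns), as log2 of CPM over the mean CPM of control, with colours limited to -0.5 and 0.5. Most rows are blue (lower) across all 8 anti-miR libraries, Atp5s is red across them, and Sdha, Sdhd, Cox7b, Atp5c1 and Atp5f1 stay pale.

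Many of these calls ended without 1 of the controls or with the GC trend removed. Without control 1, 4 of the 25 calls for anti-miR-409-5p and 6 of the 23 for anti-miR-501-3p passed, and without control 2, 17 and 18 passed. Every called estimate kept its sign in both cases, which follows wherever all anti-miR libraries lay beyond both controls and is no separate check. With the trend on GC content and length removed in each library, 10 members fell and none rose in each comparison (9 and 6 of them among the calls above), against 2.28% of all tested genes lower and 3.54% higher for anti-miR-409-5p and 3.14% lower and 4.9% higher for anti-miR-501-3p. The members' medians were then -0.08 in both. Uqcr11, Cox6b1 and Atp5e fell in both comparisons, and did so also without control 1 and also with the trend removed. With 1 surrogate variable in the fit, 4 and 2 of the calls passed. Over all tested genes, those lower then dropped from 2062 to 116 and from 2605 to 29, and 820 and 663 were higher. Calls over all tested genes also became fewer without control 1 and without control 2. With the surrogate variable, Cox6b1 passed in both comparisons, while the adjusted p was 0.0926 and 0.313 for Uqcr11 and 0.0599 and 0.15 for Atp5e.

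In complex II, the iron-sulfur subunit Sdhb and the membrane anchor Sdhc fell with both anti-miRs, and the flavoprotein Sdha and the anchor Sdhd passed the threshold in neither comparison. Sdha (chr13:74322254-74350280, with gene coordinates here and below on mm10 from GENCODE M21), which holds the flavin and oxidises succinate, was 314 and 314 CPM in control, 314, 316, 309 and 312 with anti-miR-409-5p, and 306, 305, 309.6 and 315 with anti-miR-501-3p. The groups overlapped, and the log2 fold changes were -0.01 ± 0.03 SE and -0.02 ± 0.03 SE, with adjusted p of 0.923 and 0.651. Sdhb (chr4:140961203-140979193), whose iron-sulfur clusters carry the electrons on, was 124 and 121 CPM in control, 110.3, 109.7, 110.3 and 104 with anti-miR-409-5p, and 114, 108, 112 and 112 with anti-miR-501-3p. Every anti-miR library lay below both controls. Sdhb fell by 11.6% with anti-miR-409-5p (log2 fold change -0.18 ± 0.04 SE, adjusted p = 0.0038) and by 9.15% with anti-miR-501-3p (log2 fold change -0.14 ± 0.04 SE, adjusted p = 0.0135). Sdhc (chr1:171127165-171150603), which anchors the enzyme in the inner membrane and carries the seed sites shown above, was 109 and 113 CPM in control, 102, 101, 91.7 and 88.9 with anti-miR-409-5p, and 103, 98.6, 98.04 and 85.3 with anti-miR-501-3p. Again no anti-miR library reached the controls, with the lowest value in anti-miR-501-3p 4. Sdhc fell by 13.5% (log2 fold change -0.21 ± 0.07 SE, adjusted p = 0.0354) and 13.2% (log2 fold change -0.20 ± 0.07 SE, adjusted p = 0.0342). Sdhd (chr9:50596357-50603812), the other anchor, was 146 and 155 CPM in control, 151, 144, 149 and 134 with anti-miR-409-5p, and 152, 151, 159 and 142 with anti-miR-501-3p, with overlapping groups and adjusted p of 0.432 and 0.974. Per length, Sdhd was the highest in control at 362 ± 13.97 TPM (counts over the length of the principal transcript, scaled per library; SD, n = 2), with Sdha at 321 ± 0.575 and Sdhb at 319 ± 6.27, and Sdhc was the lowest at 104 ± 2.46.

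None of the 4 complex II calls passed without control 1 (adjusted p 0.1 and 0.2 for Sdhb, 0.157 and 0.145 for Sdhc), and both Sdhc calls ended without control 2 (0.203 and 0.194). The Sdhc call for anti-miR-409-5p also ended without anti-miR-409-5p 3 (0.0938), anti-miR-409-5p 4 (0.0809) or anti-miR-501-3p 2 (0.0531). That for anti-miR-501-3p ended without anti-miR-501-3p 2 (0.0555), 3 (0.0513) or 4 (0.0653), and the Sdhb call there without anti-miR-501-3p 2 (0.0577). With the GC trend removed, Sdhb stood at 0.00 and 0.04 and Sdhc at -0.25 and -0.25, none past the threshold.

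Complex III had the largest share of members called, 6 of 9 in each comparison, and all 9 estimates were below 0 in both. Uqcr11 (chr10:80402997-80406830), a small subunit at the rim of the complex, was 67.5 and 62.9 CPM in control, 54.2, 52.9, 47.2 and 46.5 with anti-miR-409-5p, and 53.5, 49.9, 48.5 and 44.8 with anti-miR-501-3p. All 8 anti-miR libraries lay well under both controls. Uqcr11 fell by 22.96% (log2 fold change -0.38 ± 0.07 SE, adjusted p = 0.00129) and 24.6% (log2 fold change -0.41 ± 0.07 SE, adjusted p = 5.07e-04). Uqcrq (chr11:53427922-53430831), the subunit that packs against cytochrome b, was 130.3 and 115 CPM in control, 103, 105, 103 and 94.5 with anti-miR-409-5p, and 101, 98.9, 90.1 and 92.7 with anti-miR-501-3p. Its controls lay further apart than those of Uqcr11, yet no anti-miR library came up to the lower one. Uqcrq fell by 17.4% (log2 fold change -0.28 ± 0.06 SE, adjusted p = 0.00239) and 21.9% (log2 fold change -0.36 ± 0.06 SE, adjusted p = 2.53e-04).

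Other complex III members fell too, in the core and among the small subunits. Cyc1, the cytochrome c1 that hands electrons to cytochrome c, fell by 16.1% (adjusted p = 0.00608) and 18.7% (0.00158). Uqcrc1, a core protein facing the matrix, fell by 14.1% (0.00177) and 13.5% (0.00175), and Uqcr10 fell by 17.2% (0.0375) and 18.1% (0.0252). Uqcrc2, the other core protein, passed for anti-miR-409-5p alone (log2 fold changes -0.11 and -0.09, adjusted p 0.025 and 0.0623). Uqcrfs1, the Rieske iron-sulfur protein, passed for anti-miR-501-3p alone (-0.11 and -0.14, adjusted p 0.141 and 0.0467). The direct difference between the anti-miRs was -0.02 ± 0.03 SE for Uqcrc2 and 0.03 ± 0.04 SE for Uqcrfs1, neither past the threshold.

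Uqcrh, the acidic hinge protein, had the highest level of the complex by the length of the principal transcript, 648 ± 26.5 TPM (SD, n = 2) in control. By the length of all exons it stood at 416 TPM, below Uqcr10 (642), Uqcr11 (438) and Uqcrfs1 (417). It was 123 and 116 CPM in control, 112, 106, 114 and 106 with anti-miR-409-5p, and 120.5, 110.1, 115 and 116 with anti-miR-501-3p. The anti-miR-409-5p libraries all lay below control and the anti-miR-501-3p libraries overlapped it, with adjusted p of 0.0516 and 0.458. Uqcrb was the lowest at 99.02 ± 4.25 TPM and passed in neither comparison (log2 fold changes -0.04 and -0.04). For Uqcrb, 43.4% of the 50-base stretches of its transcript also occur in other annotated genes, and for Uqcrc2 24.8% do. Uqcrc2 also overlaps Pdzd9 on the opposite strand by 504 exonic bases, so both counts are uncertain. Without control 1, the calls that passed were Uqcr11 for anti-miR-409-5p and Cyc1, Uqcr11 and Uqcrq for anti-miR-501-3p, and those that ended had adjusted p of 0.06 to 0.297 and of 0.059 to 0.454. Without control 2, Uqcr10 (0.0804 and 0.0563), Uqcrc2 (0.113) and Uqcrfs1 (0.061) ended. With the GC trend removed, Uqcr11 and Uqcrq passed in both comparisons, at -0.17 and -0.18 and at -0.22 and -0.31, as did Uqcrc2, while Cyc1 and Uqcrc1 passed in neither and Uqcrb passed for anti-miR-501-3p (-0.26). Uqcr10, Uqcrc2 and Uqcrfs1 also had calls that ended without 1 anti-miR library. For anti-miR-409-5p, Uqcr10 ended without anti-miR-409-5p 1 (0.0547) or 3 (0.0927) or anti-miR-501-3p 2 (0.0531), and Uqcrc2 without anti-miR-409-5p 2 (0.0508), 3 (0.0772) or 4 (0.0605) or anti-miR-501-3p 2 (0.0502). For anti-miR-501-3p, Uqcr10 ended without anti-miR-501-3p 3 (0.0542) or 4 (0.0743), and Uqcrfs1 without anti-miR-501-3p 2 (0.0921), 3 (0.0949) or 4 (0.142) or anti-miR-409-5p 2 (0.0657) or 3 (0.0651).

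In complex IV, which reduces oxygen to water, 8 of 15 tested members fell with anti-miR-409-5p and 6 with anti-miR-501-3p, most of them abundant isoforms. All 15 estimates were below 0 in both comparisons. Cox6b1 (chr7:30616861-30626151), which bridges the monomers of the dimer, had the smallest p of all members. It was 227 and 215 CPM in control, 194, 186, 186 and 183 with anti-miR-409-5p, and 186, 179, 186 and 188 with anti-miR-501-3p. The 8 anti-miR values lay close together and all below control. Cox6b1 fell by 15.2% (log2 fold change -0.24 ± 0.04 SE, adjusted p = 3.75e-04) and 16.3% (log2 fold change -0.26 ± 0.04 SE, adjusted p = 1.24e-04). Cox4i1 (chr8:120668222-120674207), a regulatory subunit, was 309.8 and 296 CPM in control, 268, 269, 272 and 254 with anti-miR-409-5p, and 265, 261, 268 and 259 with anti-miR-501-3p. By the length of the principal transcript, Cox4i1 was the highest of the complex at 1175 ± 41.3 TPM (SD, n = 2), but by that of all exons it stood at 842 TPM, below Cox8a (1387), Cox6b1 (1344) and Cox6a1 (1265). Its groups did not overlap, and it fell by 12.3% (log2 fold change -0.19 ± 0.04 SE, adjusted p = 0.00171) and 13.1% (log2 fold change -0.20 ± 0.04 SE, adjusted p = 7.11e-04).

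Among the other subunits of the membrane rim, Cox6a1 fell by 18.8% and 20.1% (adjusted p 0.00635 and 0.0031), Cox8a by 16.9% and 19.7% (0.00838 and 0.00229) and Cox7a2 by 12.6% and 11.7% (0.0336 and 0.0408). Cox6c and Cox7c passed for anti-miR-409-5p alone. The log2 fold changes of Cox6c were -0.14 and -0.11 (adjusted p 0.0245 and 0.0591), and its direct difference between the anti-miRs was -0.03 ± 0.04 SE. Those of Cox7c were -0.46 and -0.30 (0.0105 and 0.0676), with a direct difference of -0.16 ± 0.11 SE. Cox5a and Cox5b, which sit on the matrix side of the complex, Cox7b, and Cox7a2l, which links complexes III and IV into supercomplexes, passed in neither comparison (log2 fold changes from -0.17 to -0.01).

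In every library, each isoform family was dominated by its widely expressed isoform. Cox4i1 made up 99.9% or more of the Cox4 level per length, against 0.703 TPM in control for Cox4i2, an isoform of lung. Cox6a1 (1072 TPM), Cox7a2 (591 TPM) and Cox8a (1076 TPM) stood beside their heart and skeletal muscle counterparts Cox6a2, Cox7a1 and Cox8b at 7.60, 7.59 and 5.57 TPM. Cox6b1 (1061 TPM) and Cox7b (301 TPM) likewise stood beside the testis isoforms Cox6b2 and Cox7b2 at 6.27 and 0.841 TPM, and Cox8c, a further testis isoform, had 0 counts in all 10 libraries. Cox6a2 was the only one of these minor isoforms that passed, at 1.28 and 2.20 CPM in control, 1.08, 0.858, 1.04 and 0.761 with anti-miR-409-5p, and 1.11, 0.951, 1.19 and 1.12 with anti-miR-501-3p. The controls differed widely and every anti-miR library lay below both (log2 fold changes -0.92 ± 0.23 and -0.68 ± 0.22 SE, adjusted p 0.00632 and 0.0231). Without control 2, the higher of the controls, Cox6a2 stood at -0.46 and -0.23 with adjusted p of 0.255 and 0.583. The plot of levels shows these groups apart.

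**Figure D3:**
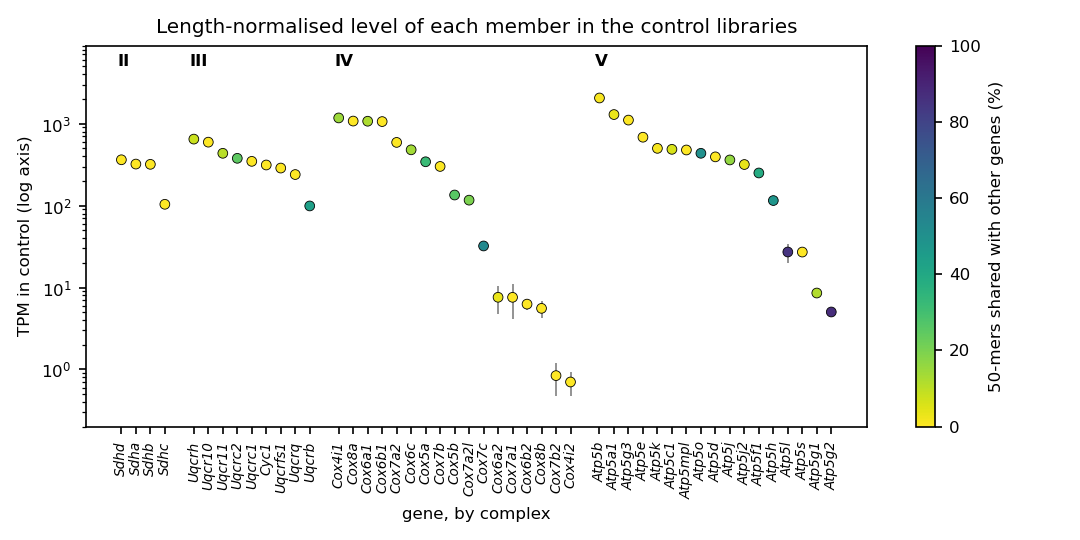
Mean TPM in the 2 control libraries (log axis, bars are SD) of every member with counts, grouped by complex and coloured by the percentage of its transcript's 50-base stretches that occur in other annotated genes. The muscle, lung and testis isoforms of complex IV lie below 10 TPM, and the low members Atp5l and Atp5g2 of complex V carry the darkest colours.

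Without control 1, Cox6a2 and Cox6b1 passed in both comparisons, and the other calls of complex IV had adjusted p of 0.092 to 0.244 and of 0.0527 to 0.263. Without control 2, Cox7a2 (0.12 and 0.128) and Cox6c (0.155) ended besides Cox6a2. After removal of the GC trend, Cox6b1 fell in both (-0.16 and -0.17), as did Cox6c (-0.15 and -0.14) and Cox7b (-0.24 and -0.25), Cox6a2 and Cox7c fell with anti-miR-409-5p (-0.79 and -0.50), and Cox4i1 moved to 0.04 and 0.03, on the other side of 0. Among the anti-miR libraries, the call of Cox6c ended without anti-miR-409-5p 4 (0.0647) and that of Cox6a2 with anti-miR-501-3p without anti-miR-501-3p 2 (0.0639). Cox7a2 ended for anti-miR-409-5p without anti-miR-409-5p 1 (0.065), 3 (0.0522) or 4 (0.0807), and for anti-miR-501-3p without anti-miR-409-5p 1 (0.0536) or 3 (0.0542) or anti-miR-501-3p 3 (0.0922) or 4 (0.0959). Cox7c stood at only 32.2 TPM, and 52.95% of its 50-base stretches occur in other annotated genes, so its level and change are uncertain. Cox4i1 shares 154 exonic bases with Emc8 and Cox6c 250 with Vps13b, both on the opposite strand, as are 70 bases that Cox6a2 shares with Itgad.

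Complex V moved in both directions: 8 of 17 members fell and 1 rose in each comparison. Within the catalytic head, Atp5b (chr10:128083273-128090391), the beta subunit where ATP is made, stood at 2059 ± 59.9 TPM (SD, n = 2) in control, the highest of all members by the length of the principal transcript. By the length of all annotated exons it stood at 1351 TPM, below Atp5a1 (1479 TPM) and Cox8a (1387 TPM). It was 1354 and 1304 CPM in control, 1249.6, 1219, 1206 and 1163 with anti-miR-409-5p, and 1203, 1189, 1191 and 1169 with anti-miR-501-3p. All anti-miR libraries lay below both controls. Atp5b fell by 8.99% (log2 fold change -0.14 ± 0.03 SE, adjusted p = 0.00707) and 10.6% (log2 fold change -0.16 ± 0.03 SE, adjusted p = 0.00169). Atp5a1, the alpha subunit, was at 1293 TPM and passed for anti-miR-409-5p alone (log2 fold changes -0.13 and -0.11, adjusted p 0.0318 and 0.0628, direct difference -0.02 ± 0.03 SE).

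The central stalk, which turns inside the head, was split. Atp5e (chr2:174461072-174464105), its epsilon subunit, was 96.8 and 97.1 CPM in control, 83.5, 83.02, 79.3 and 73.2 with anti-miR-409-5p, and 81.7, 79.4, 78.2 and 74.3 with anti-miR-501-3p. The controls were nearly equal and the 8 anti-miR libraries were all lower. Atp5e fell by 17.8% (log2 fold change -0.28 ± 0.05 SE, adjusted p = 8.78e-04) and 19.1% (log2 fold change -0.31 ± 0.05 SE, adjusted p = 3.11e-04). Atp5d, the delta subunit, fell by 19.00% and 21.2% (adjusted p 0.00591 and 0.00217). Atp5c1, the gamma subunit that forms the shaft, passed in neither comparison, with log2 fold changes of 0.00 ± 0.04 and 0.02 ± 0.04 SE.

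In the peripheral stalk, which holds the head still, 3 of 4 members fell. Atp5o, the oligomycin sensitivity protein, fell by 11.6% and 11.3%, Atp5h (subunit d) by 14.1% and 13.4%, and Atp5j by 9.03% and 10.8%, with adjusted p from 0.00314 to 0.0314. Atp5f1 (subunit b) had log2 fold changes of 0.05 and 0.07 and passed in neither comparison. Of the 50-base stretches, 50.3% of those of Atp5o, 47.9% of Atp5h and 38.7% of Atp5f1 occur in other annotated genes, so these counts are uncertain. On the opposite strand, Atp5j shares 397 exonic bases with Gabpa, Atp5f1 337 with Wdr77, Atp5a1 129 with Haus1 and Atp5d 68 with Cbarp. Atp5o shares 346 with D430001F17Rik and 356 with Gm15976, also on the opposite strand. The library kit did not mark strand.

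Membrane subunits were mixed. Atp5j2 (chr5:145183698-145192062), subunit f, was 106 and 98.6 CPM in control, 85.99, 85.3, 90.2 and 84.2 with anti-miR-409-5p, and 87.5, 85.8, 88.5 and 86.2 with anti-miR-501-3p. Its groups did not overlap, and it fell by 15.4% (log2 fold change -0.24 ± 0.04 SE, adjusted p = 6.75e-04) and 14.8% (log2 fold change -0.23 ± 0.04 SE, adjusted p = 6.40e-04). Atp5k (subunit e) passed for anti-miR-501-3p alone (log2 fold changes -0.11 and -0.14, adjusted p 0.0985 and 0.027, direct difference 0.03 ± 0.04 SE). Atp5mpl, a small proteolipid, and Atp5l (subunit g) passed in neither. The 3 genes for the same c subunit of the proton-carrying ring passed in neither comparison, with log2 fold changes of -0.08 and -0.13 for Atp5g3, -0.07 and -0.12 for Atp5g1 and 0.21 and 0.37 for Atp5g2. Atp5g3 gave 98.5% to 98.8% of their summed level per length, at 1106 TPM in control against 8.57 for Atp5g1, counted over a transcript of 4715 bases, and 5.03 for Atp5g2. For Atp5g2, 87.4% of 50-base stretches occur in other annotated genes, and for Atp5l 84.8%, so their low counts are uncertain.

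Atp5s (chr12:69724950-69744660) was the only member that rose. It encodes coupling factor B, a protein outside the stoichiometric subunits of the enzyme. Atp5s was 13.6 and 15.6 CPM in control, 16.03, 17.5, 19.6 and 17.4 with anti-miR-409-5p, and 16.9, 20.4, 20.01 and 20.8 with anti-miR-501-3p. Every anti-miR library lay above both controls, by the least in anti-miR-409-5p 1. It rose by 20.2% (log2 fold change 0.27 ± 0.09 SE, adjusted p = 0.04) and 33.6% (log2 fold change 0.42 ± 0.09 SE, adjusted p = 0.00237). Its transcript had the lowest GC content of all tested members, 40.2%, and with the GC trend removed its log2 fold changes were -0.04 and 0.04, neither past the threshold. Neither call passed without control 1 (adjusted p 0.342 and 0.0712). The call for anti-miR-409-5p also ended without anti-miR-409-5p 2 (0.0557), 3 (0.094) or 4 (0.0648) or anti-miR-501-3p 3 (0.0523).

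Without control 1, Atp5e was the only call of complex V that passed, in both comparisons, and the others had adjusted p of 0.0523 to 0.342 and of 0.0534 to 0.421. Without control 2, Atp5a1 (0.118) and Atp5j (0.105) ended for anti-miR-409-5p. After removal of the GC trend, Atp5e (-0.15 and -0.15) and Atp5j2 (-0.17 and -0.17) passed in both, Atp5b passed for anti-miR-501-3p (-0.09), and Atp5j moved to the other side of 0 (0.06 and 0.03). Leaving out an anti-miR library ended the calls for anti-miR-409-5p of Atp5a1, without anti-miR-409-5p 3 (0.103) or 4 (0.0929) or anti-miR-501-3p 2 (0.0576), and of Atp5j, without anti-miR-409-5p 3 (0.065) or 4 (0.0869) or anti-miR-501-3p 2 (0.0556). It ended that of Atp5k for anti-miR-501-3p without anti-miR-501-3p 1 (0.0569) or 3 (0.0667).

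In the 36 members matched in the RefSeq promoter table used here (GRCm38.p6), 300 bases around the start site (250 before, 50 after) were searched for motifs. Shown, 5′ to 3′ on the gene's strand, are those of the member of smallest summed rank of p over both comparisons in each complex, and of both Atp5e and Atp5j2, which tied in complex V. Capitals mark the ETS core CCGGAAG or its reverse complement, and in Atp5j2 the YY1 motif AAGATGG or its reverse complement. This core is bound by the GABP (NRF-2) factor, a regulator of many respiratory genes.
Sdhb promoter, chr4:140961021-140961320 (+): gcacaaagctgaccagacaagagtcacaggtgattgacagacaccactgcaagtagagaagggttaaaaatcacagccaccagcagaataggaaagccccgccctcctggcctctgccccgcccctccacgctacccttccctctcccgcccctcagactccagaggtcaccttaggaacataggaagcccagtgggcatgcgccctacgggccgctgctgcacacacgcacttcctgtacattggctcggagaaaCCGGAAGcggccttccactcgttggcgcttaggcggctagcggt
Uqcr11 promoter, chr10:80406772-80407071 (-): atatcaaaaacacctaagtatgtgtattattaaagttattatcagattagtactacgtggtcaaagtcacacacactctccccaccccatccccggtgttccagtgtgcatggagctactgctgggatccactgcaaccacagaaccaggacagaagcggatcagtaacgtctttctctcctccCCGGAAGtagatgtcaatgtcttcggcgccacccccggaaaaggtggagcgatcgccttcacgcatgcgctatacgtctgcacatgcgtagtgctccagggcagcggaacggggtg
Cox6b1 promoter, chr7:30626065-30626364 (-): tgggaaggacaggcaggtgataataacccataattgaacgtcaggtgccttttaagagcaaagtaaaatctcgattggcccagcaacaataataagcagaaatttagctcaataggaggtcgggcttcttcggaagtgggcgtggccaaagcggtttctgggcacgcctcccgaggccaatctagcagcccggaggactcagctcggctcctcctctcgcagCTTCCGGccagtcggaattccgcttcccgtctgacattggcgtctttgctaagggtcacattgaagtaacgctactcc
Atp5e promoter, chr2:174464052-174464351 (-): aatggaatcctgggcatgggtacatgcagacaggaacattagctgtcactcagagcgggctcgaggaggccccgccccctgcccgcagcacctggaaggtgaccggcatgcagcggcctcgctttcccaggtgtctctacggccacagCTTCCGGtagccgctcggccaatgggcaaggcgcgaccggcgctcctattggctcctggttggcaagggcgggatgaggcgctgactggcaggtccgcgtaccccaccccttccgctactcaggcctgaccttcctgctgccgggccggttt
Atp5j2 promoter, chr5:145191492-145191791 (-): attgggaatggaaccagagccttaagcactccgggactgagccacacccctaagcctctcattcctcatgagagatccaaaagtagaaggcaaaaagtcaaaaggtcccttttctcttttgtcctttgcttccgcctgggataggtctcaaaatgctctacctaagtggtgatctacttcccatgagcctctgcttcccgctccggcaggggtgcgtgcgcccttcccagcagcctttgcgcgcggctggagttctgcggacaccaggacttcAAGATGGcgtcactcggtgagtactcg
Of these 5, Atp5j2 held no ETS core, and its RefSeq start site lies 521 bases from the GENCODE one. Among all 36 members, 11 (30.6%) held the ETS core on either strand, against 16.7% of the promoters of 11175 tested protein-coding genes and 9.12% of all 27025 promoters. The NRF1 motif TGCGCANGC was found in 16.7% of members, against 8.31% and 4.33%, and the YY1 motif AAGATGG in 8.33%, against 6.72% and 6.48%. For members the listed promoter nearest the GENCODE start site was taken, and for the genes compared the first one listed, so the choices differ. The 36 include Cox7b2, which was not tested. The motifs were counted separately, and a match is a string in this window, not a bound site. Sdhd, Uqcrh and Atp5l, which were not called, held the ETS core, and Uqcrc1, Atp5b and Atp5o, which fell, did not. The shares were not split by whether members fell, and a part of these motifs in the falls was not tested.

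Summed per length, each complex lay lower in all 8 anti-miR libraries than in both controls. The nuclear genes of complex II summed to 1099.8 and 1113 TPM in control, 1052, 1027, 1019 and 967 with anti-miR-409-5p, and 1053, 1019, 1048 and 1004 with anti-miR-501-3p. Complex II changed least of the 4, with -8.17% and -6.83% in the group means. Those of complex III summed to 3433 and 3250.3 TPM in control, 2971, 2917, 2780.1 and 2636 with anti-miR-409-5p, and 3004, 2808, 2760.1 and 2699 with anti-miR-501-3p, a change of -15.4% and -15.7%. Complex IV summed to 6535 and 6283 TPM in control, 5596, 5572, 5391 and 5088 with anti-miR-409-5p, and 5565, 5329, 5298 and 5173 with anti-miR-501-3p (-15.6% and -16.7%). Abundant members set these sums, and no test was made of them. Complex V summed to 8648 and 8439.8 TPM in control, 7937, 7824, 7513 and 7155 with anti-miR-409-5p, and 7750.0, 7504, 7472 and 7302 with anti-miR-501-3p (-10.97% and -12.1%). TPM values carry no TMM scaling, and as sums of scaled CPM the changes were -5.20% and -4.36% for complex II, -12.5% and -12.8% for complex III, -12.9% and -13.6% for complex IV, and -8.48% and -8.92% for complex V.

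Subunits of the same complexes encoded by mitochondrial DNA moved the other way where they could be read. Transcripts of mt-Cytb, cytochrome b of complex III, were 6573 and 6896 CPM in control, 7808, 8091, 8084 and 8387 with anti-miR-409-5p, and 7302, 8030.4, 8396 and 8854 with anti-miR-501-3p. All anti-miR libraries lay above both controls, and mt-Cytb rose by 20.2% (adjusted p = 0.00795) and 20.95% (0.00517). For mt-Co1, the catalytic subunit of complex IV, the values were 5933 and 6100.0 CPM in control, 7271, 7558, 7363 and 7474 with anti-miR-409-5p, and 7124, 7579, 7429 and 7804 with anti-miR-501-3p. The groups were again separate, and mt-Co1 rose by 23.3% (2.51e-05) and 24.4% (8.30e-06). Without control 1, the adjusted p was 0.0985 and 0.0749 for mt-Cytb and 0.00207 and 7.89e-04 for mt-Co1, and with 1 surrogate variable it was 0.354 and 0.634 for mt-Cytb and 3.78e-05 and 1.92e-04 for mt-Co1. With the GC trend removed, both lay below 0 (mt-Cytb -0.10 and -0.17, mt-Co1 -0.03 and -0.08), and mt-Cytb passed as lower for anti-miR-501-3p (adjusted p = 0.0335). The remaining 4 of these 6 genes, mt-Co2, mt-Co3, mt-Atp6 and mt-Atp8, are listed at 0 counts in every library. Of their 50-base stretches, 100% in mt-Co2, 99.9% in mt-Co3 and 99.5% in mt-Atp6 also occur in annotated nuclear pseudogenes, against 51.1% in mt-Co1 and 0% in mt-Cytb and mt-Atp8. Their levels are not known from these counts.

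**Figure D4:**
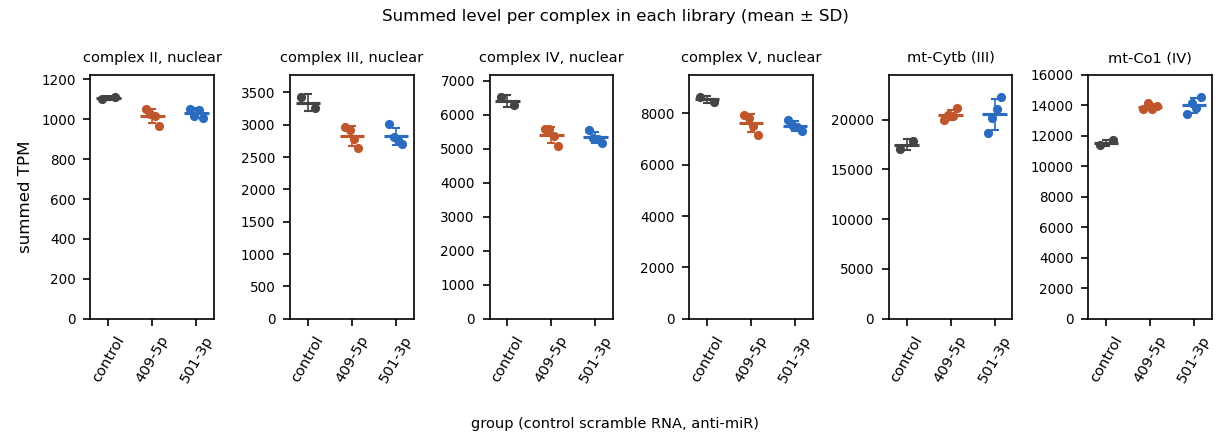
Summed TPM of the nuclear members of each complex and TPM of mt-Cytb and mt-Co1 in each library (points), with group means and SD (control n = 2, each anti-miR n = 4). Nuclear sums lie lower and both mitochondrial transcripts higher in all 8 anti-miR libraries than in the 2 controls.

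The members were close to all tested genes in GC content but had shorter transcripts, and their fold changes fell with GC content. Median GC content was 50.5% in the 45 tested members and 50.0% in all tested genes, while their median transcript length was 765 bases against 2871. Across the 45 members, the log2 fold change fell with GC content (Spearman rho -0.53 and -0.49, points that share all libraries). GC-rich members such as Uqcr11 (58.9%), Cox6a1 (58.8%), Atp5d (59.3%) and Cox8a (58.5%) were among the lowest, and Atp5s (40.2%) and Cox7b (42.0%) among the highest. Others departed from the trend. With anti-miR-409-5p, Cox6a2 (52.8%) stood at -0.92 and Cox7c (46.7%) at -0.46, while Atp5g2 (56.6%) was among the highest. Within the interquartile range of the members' GC content, 48.7% to 55.5%, 13 of 23 members (56.5%) fell in each comparison. In that range, 10.4% of 6066 tested genes fell with anti-miR-409-5p and 14.4% with anti-miR-501-3p. The medians there were -0.18 and -0.16 for members and -0.06 and -0.07 for all genes. The genes in that range were not matched for length, and the cause of the falls was not tested. The plot of GC content shows the members before and after the trend was removed.

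**Figure D5:**
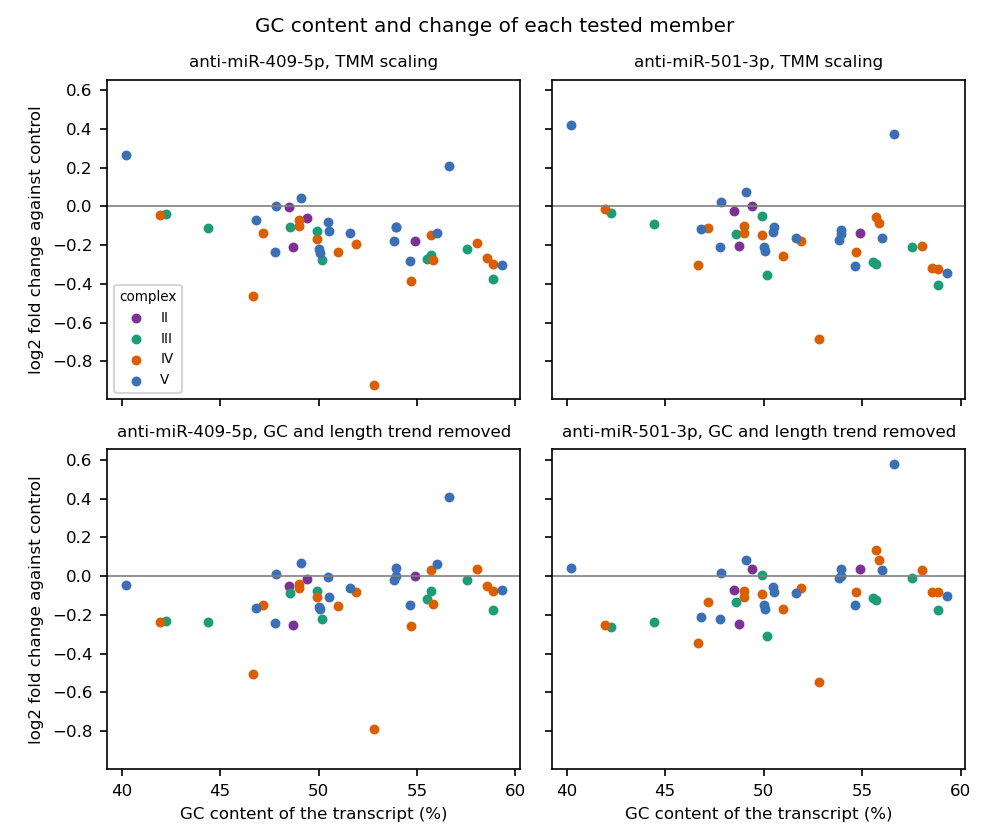
Log2 fold change against control (y axis) and GC content of the transcript (x axis, %) of the 45 tested members, coloured by complex, for anti-miR-409-5p (left) and anti-miR-501-3p (right), with TMM scaling (top) and with the per-library trend on GC content and length removed (bottom). Atp5s, at 40.2% GC, stands above the others of low GC content in the top panels and near 0 in the bottom panels, Atp5g2 is the high point at 56.6%, and 37 and 33 of 45 members lie below 0 after removal.

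Set directly against each other, the anti-miRs gave no difference past the threshold in any member. None of the 45 passed in either direction, where 0% of all tested genes were lower and 0% higher (0 of 16884 by edgeR, with 992 at an unadjusted p of 0.05, and 3 by DESeq2). No member reached an unadjusted p of 0.05. The differences (anti-miR-409-5p minus anti-miR-501-3p) ran from -0.24 for Cox6a2 to 0.08 for Uqcrq, with a median SE of 0.05. Atp5s had the smallest p, with a difference of -0.15 ± 0.07 SE and an adjusted p of 0.853. With the replicate number as a block, 98 of all tested genes were higher and 154 lower in this comparison, without a call among the members. Missing the threshold does not show that the anti-miRs act alike.

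Of 44 genes for assembly factors and accessory proteins of complexes II to V, 42 were tested, and they moved in both directions. With anti-miR-409-5p 5 rose and 7 fell (median -0.09), and with anti-miR-501-3p 6 rose and 10 fell (median -0.05). All tested genes moved in both directions too, with 15.6% higher and 12.2% lower, and 17.6% and 15.4%. Without control 1 these were 2 and 2, and 3 and 1, without control 2 they were 2 and 3, and 4 and 6, and with the GC trend removed 1 and 2, and 2 and 3. Leaving out anti-miR-409-5p 3 or 4 gave 4 and 4, or 3 and 4, for anti-miR-409-5p, and leaving out anti-miR-501-3p 4 gave 6 and 6 for anti-miR-501-3p. Cycs, the cytochrome c that carries electrons from complex III to complex IV, was 4.27 and 4.48 CPM in control, 6.88, 7.24, 7.03 and 8.18 with anti-miR-409-5p, and 7.64, 8.12, 8.19 and 7.02 with anti-miR-501-3p. It rose by 68.1% (log2 fold change 0.75 ± 0.11 SE, adjusted p = 1.31e-04) and 76.7% (log2 fold change 0.82 ± 0.11 SE, adjusted p = 3.43e-05), with all anti-miR libraries above control, and passed without control 1 and with the GC trend removed (0.42 and 0.45). Stretches of 50 bases shared with other genes were not counted for this list. The level and change of Cycs, at a few CPM, are therefore uncertain. Sdhaf3, an assembly factor for the iron-sulfur subunit of complex II, rose (0.55 and 0.57), as did Ttc19, which acts on the Rieske protein of complex III (0.23 and 0.26). Uqcc2, an assembly factor for cytochrome b, fell (-0.26 and -0.24), as did Higd2a, an assembly factor of complex IV (-0.21 and -0.18). None of these 4 passed with the GC trend removed, and with 1 surrogate variable only Higd2a with anti-miR-409-5p did (adjusted p = 0.0272). Without control 1, the adjusted p was 0.0564 for Uqcc2 and 0.0532 for Higd2a with anti-miR-501-3p and 0.0755 for Ttc19 with anti-miR-409-5p, and without control 2 it was 0.0857 and 0.0588 for Sdhaf3.

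Among 14 transcription regulators of nuclear respiratory genes and of mitochondrial DNA, 3 rose and 1 fell with anti-miR-409-5p, and 5 rose and 3 fell with anti-miR-501-3p (medians 0.12 in both), where the shares of all tested genes were 15.6% higher and 12.2% lower, and 17.6% and 15.4%. Without control 1 these were 1 and 1, and 2 and 1, and without control 2 they were 2 and 1, and 2 and 2. With 1 surrogate variable none of the 14 passed in either comparison (adjusted p of 0.361 and 0.432 for Yy1 and 0.354 and 0.459 for Ppargc1a). Ppargc1a, the coactivator that drives mitochondrial biogenesis, rose (0.30 and 0.35, adjusted p 0.00349 and 7.50e-04). Gabpa, the DNA-binding subunit of GABP, rose (0.30 and 0.37, 0.005 and 6.96e-04), and its exons overlap Atp5j as given above. Yy1 rose (0.19 and 0.22, 0.0334 and 0.0128). Polrmt, the RNA polymerase of mitochondria, fell (-0.31 and -0.33, 0.00198 and 8.41e-04), and Pprc1, a relative of Ppargc1a, fell with anti-miR-501-3p (-0.21, 0.00575). Only Yy1 passed of the 14 with the GC trend removed, in both comparisons (0.19 and 0.24). The calls of Yy1 (0.114 and 0.0645), of Ppargc1a with anti-miR-409-5p (0.0671) and of Pprc1 (0.256) ended without control 1, and those of Yy1 ended without control 2 too (0.163 and 0.089). The call of Yy1 for anti-miR-409-5p also ended without anti-miR-409-5p 3 or 4 (up to 0.098).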

How the data were processed

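Per the labels' protocols, polyadenylated RNA was sequenced as 50 bp single-end reads (TruSeq RNA kit v2, HiSeq2000), a kit that does not mark strand. Per the submitters' processing notes, STAR 2.5.2b and Subread 1.5.1 with featureCounts were used on build mm10, besides FastQC 0.11.5; the annotation, strand setting and treatment of reads mapping to several places are not given in the sources used here. The deposited values are raw counts by Ensembl identifier, in a table for each library. The authors' own comparison tables were not used.

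Counts were filtered with filterByExpr (16884 genes left), scaled by TMM and tested, two-sided, with edgeR 4.0.16 (quasi-likelihood, robust) in 1 fit of all 10 libraries with 3 groups, because control has 2 libraries, at a Benjamini-Hochberg adjusted p of 0.05 over all genes tested. CPM use TMM library sizes, and 3 counts equal 0.0951 to 0.136 CPM. TPM divide by the length of the principal transcript of GENCODE M21, and where stated by that of all annotated exons. Symbols came from Ensembl identifiers (48349 of 48709). Standard errors are the size of the log2 fold change over the square root of the test's F statistic. A prior count of 2 was used for log2 CPM only. The procedure was run before use on simulated counts with 200 changed genes. Those counts held no GC or length trend and no variation shared by replicate number, so they cannot show how such features affect the calls. The trend correction fitted, per library, splines (5 degrees of freedom) of GC content and log length as an offset, and it may remove differences that belong to the cells. Alternatives were other scalings, no filter, only the groups compared, DESeq2 1.42.0, 1 surrogate variable (sva 3.50.0), the replicate number as a block and each library left out. No 2 libraries agreed within sampling noise.

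Values in every library are given for all of complex II, and in the others for the 2 members of smallest summed rank of p, members that rose and the member of highest TPM; for each further list the plan was to name up to 4 genes of smallest p, which was done in each comparison and gave 5 genes per list. Cox6a2 values, and the members called in 1 comparison, were added after they were seen. Members and lists were chosen with earlier results of these data known.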

Additional observations from a re-analysis of the deposited data

Results flagged for a closer look

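In groups of 4, a library stood far from the other 3 in 5 of 90 cases over the 45 tested members, and chance alone flags about 1 in 20. With anti-miR-409-5p, library 4 was lowest for Sdhb (103.8 CPM, the others 109.7 to 110.3) and for Atp5o (103.4 CPM, the others 109.7 to 110.8). With anti-miR-501-3p, library 4 was lowest for Cox7a1 (0.644 CPM, the others 0.903 to 0.956) and for Cox7a2l (35.5 CPM, the others 38.7 to 39.3), and library 1 was highest for Atp5d (161.9 CPM, the others 141.0 to 143.2).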

How the results depend on the processing

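The counts of members called, 25 with anti-miR-409-5p and 23 with anti-miR-501-3p, dropped to 10 and 10 with the GC and length trend removed, to 11 and 10 with that correction and the replicate block together, and to 4 and 2 with 1 surrogate variable. Leaving out 1 library gave 4 to 26 and 6 to 26 calls, lowest without control 1 (4 and 6). Other scalings, no filter, the 2 groups alone and DESeq2 gave 24 to 29 and 20 to 30. The direct comparison gave 0 members throughout. Upper-quartile and total-count scaling moved all-gene calls from 2634 higher and 2062 lower to 2233 and 3074 and to 2193 and 3209 with anti-miR-409-5p, and from 2974 and 2605 to 2540 and 3607 and to 2452 and 3779 with anti-miR-501-3p. All-gene calls were 598 higher and 385 lower, and 828 and 530, with the GC and length trend removed, 820 and 116, and 663 and 29, with the surrogate variable, and 1132 and 170, and 1526 and 274, without control 1. Reading the rule with every symbol starting Sdh, or with older Atp5 symbols, would give 52 or 50 members in place of 48. As sums of CPM, the anti-miR-501-3p changes were -4.36% for complex II, -13.6% for complex IV and -8.92% for complex V.

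The replicate block gave 26 and 25 members called, and same-numbered libraries correlated by 0.03 to 0.17 in their deviations, with 8 of 8 anti-miR libraries closest to their own number, a hint from the data alone. Over all genes it gave 98 higher and 154 lower in the direct comparison, against 0, without a call among the members. It ended 1 call, of Uqcrfs1 with anti-miR-501-3p (adjusted p = 0.0577). Control has libraries for numbers 1 and 2 only. Most called estimates shrank with the block. Uqcr11 went from -0.38 and -0.41 to -0.29 and -0.32, and Uqcr10 from -0.27 and -0.29 to -0.17 and -0.19. Cox6b1 hardly moved (-0.24 and -0.26 with the block), and the estimates of Cox6a2 and Atp5j2 grew in size.

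With the GC and length trend removed, called values changed sign for Sdhb (0.00068 with anti-miR-409-5p, 0.0374 with anti-miR-501-3p), Cox4i1 (0.039, 0.0313), Atp5j (0.0607, 0.0335) and Atp5s with anti-miR-409-5p (-0.045). With the block added, they were 0.0141 for Sdhb with anti-miR-501-3p, 0.0578 and 0.0309 for Atp5j and -0.0689 for Atp5s. Uqcrfs1 with anti-miR-501-3p stood at 0.0386 with the surrogate variable. A further 58 estimates that passed in neither setting changed sign. The causes were not tested. With 1 library of a group left, the lone library is assumed to vary like the other groups. At a few CPM or with shared sequence (Cox6a2, Cox7c, Atp5g2, Atp5l), counts limit what can be read.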
